A study of Mus musculus with 6 samples.

Results

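The Fn1 locus was taken as a fixed window of 200 kb on chromosome 1, chr1:71580000-71780000 in the mm9 build. Its sites were taken by position alone, and the locus itself was picked with earlier results of these data known. The gene lies on the minus strand at about chr1:71632000-71700000, a span of 68 kb, so its start is at the higher coordinate and its upstream side runs to still higher coordinates. Of 578591 accessible sites in the deposited table, 32 lay in this window. These gene bounds are approximate, so each distance below is approximate by the same amount.

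The study profiled open chromatin by ATAC-seq (a transposase inserts sequencing adapters where DNA is accessible) in mouse bone marrow-derived macrophages (BMDMs). All 6 libraries came from C57BL/6J marrow grown in medium conditioned by L929 cells, a fibroblast line that secretes MCSF, and each of the 6 groups holds 1 library. The Untreated library had no added agent, and the IL-4 library received 20 ng/ml of the cytokine for 24 hours. The DMSO library received the vehicle alone and the DMSO + IL-4 library the vehicle with 20 ng/ml IL-4. The LatA + IL-4 library received 1 μM latrunculin A, an inhibitor of actin polymerization dissolved in DMSO, with the same IL-4. The MCSF + IL-4 library received 100 ng/ml MCSF, the growth factor of macrophages, with the same IL-4 and no vehicle. Whether libraries shared a mouse or a marrow preparation is not given in the sources used here.

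Fn1 encodes fibronectin, a large extracellular matrix glycoprotein that cells assemble into fibrils and bind through integrins. It is made by many cell types, among them macrophages, and is a classical product of macrophages in tissue repair. IL-4 acts in macrophages through the transcription factor STAT6, and actin polymerization links the state of the cytoskeleton to transcription through factors such as SRF and its MRTF partners.

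Values are given as whole reads and as normalized reads, which are reads scaled to the geometric mean of the effective library sizes. Where 6 values are listed, the first are Untreated and DMSO, then IL-4 alone, then IL-4 with vehicle, with LatA and with MCSF. The libraries held 12387332 to 19889902 reads in sites. A site was tested when its mean over the 6 libraries was at least 20 normalized reads, which left 6 of the 32 sites in the window and 132057 of all sites. A tested site was called higher or lower past a 1.5-fold difference. Because each group is 1 library, no difference was compared with the spread between replicates, these ratios carry no p-value, and each describes a pair of libraries rather than of conditions. The 95% intervals beside ratios are exact conditional (Clopper-Pearson) intervals, and those of single libraries are exact Poisson intervals. Both reflect counting error at most. Reads carrying no molecular identifier are not independent molecules, so the intervals can be too narrow even for that.

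In the Fn1 window, macrophage chromatin had few sites in the gene and was strong at 2 places outside it. The gene span held 4 sites, and 1 of them passed the read filter. Among 2855 tiles of the same length on chromosome 1, the mean number of sites was 14.9 and the median 14, and 5.78% of tiles held 4 or fewer. For sites passing the filter the mean was 3.40 and the median 3. By that count 27.6% of tiles held 1 or fewer, so the gene span was not unusual in its tested sites. The summed level of the 4 sites was 61.4 normalized reads on average, below the median tile of 226, and 8.30% of tiles were at or below it. The upstream flank held 19 sites, of which 3 passed, and the downstream flank 9, of which 2 passed.

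The site with the most reads in the window, chr1:71603335-71604221, lay 96.2 kb from the gene start and 28.2 kb beyond the gene end. On that side the next protein-coding gene in RefSeq's GRCm38.p6 order is Atic, an enzyme of purine synthesis. The bounds of Atic in mm9 were not available here. Whether this site lies at Atic was therefore not determined, and it may not belong to Fn1. This downstream site took 35.5% of the normalized reads of the window, with a mean of 268, and stood at the 99.7 percentile of all sites by mean reads. The second strongest, chr1:71777311-71778020, lay 77.7 kb upstream of the gene start. It took 17.0% of the window, with a mean of 129, at the 98.5 percentile. Per kb of site the levels were 302 and 181 normalized reads, against 39.8 at the site at the gene start.

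**Figure D1:**
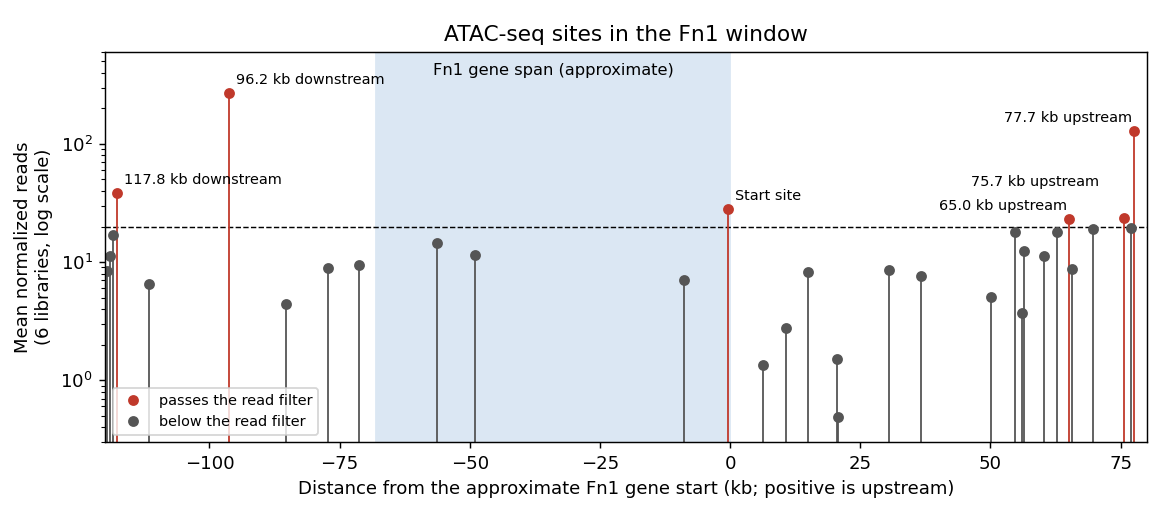
Each stem is 1 of the 32 sites, placed by the distance of its centre from the approximate Fn1 gene start in kb, with its mean normalized reads over 6 libraries on a log axis. The shaded band is the gene span and the dashed line the read filter of 20; the tallest stems, 96.2 kb downstream (mean 268) and 77.7 kb upstream (mean 129), stand outside the gene.

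The start site, chr1:71699260-71699970, is 711 bp wide, and its centre lay 0.385 kb inside the approximate gene start. It is the tested site of the gene span. Its mean was 28.3 normalized reads, the 86.2 percentile of all sites and the 39.7 percentile among tested sites. The Fn1 start was thus open but below the middle of the tested sites. On that scale the 96.2-kb downstream and 77.7-kb upstream sites stood at 98.6 and 93.5. The start site had 22 reads in Untreated and 28 in DMSO, and with IL-4 it had 37 alone, 12 with vehicle, 42 with LatA and 28 with MCSF. After scaling these were 16.3, 25.2, 36.3, 14.9, 44.3 and 32.8 normalized reads. The highest 3 libraries were thus LatA + IL-4, then IL-4 alone, then MCSF + IL-4, and the lowest 2 were Untreated and DMSO + IL-4.

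No 2 libraries next to each other in that order differed beyond counting error. The widest such step, DMSO over Untreated, was 1.55-fold with an interval of 0.855 to 2.84. The ends of the order did differ: LatA + IL-4 was 2.98-fold above DMSO + IL-4 (1.54 to 6.22).

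**Figure D2:**
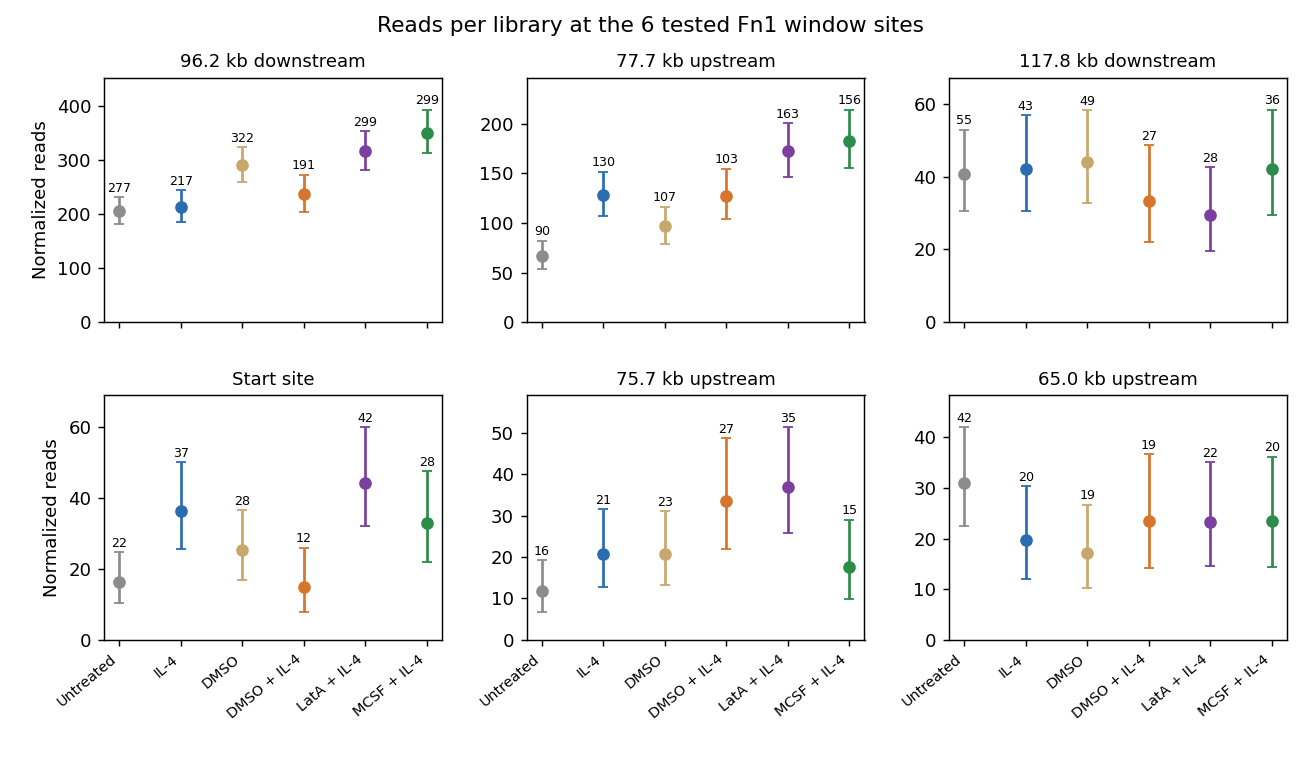
Normalized reads (y axis, from 0) in each of the 6 libraries (x axis) at the 6 tested sites, named by distance from the gene start, with exact 95% Poisson intervals as bars and whole reads printed above. At the start site DMSO + IL-4 (12 reads) and Untreated (22 reads) are lowest, and at the 77.7-kb upstream site Untreated (90 reads) is lowest and MCSF + IL-4 and LatA + IL-4 are highest.

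The first comparison asked how IL-4 changed accessibility at Fn1. At the start site, IL-4 was 2.23-fold above Untreated (1.28 to 3.97), while DMSO + IL-4 was 0.589 of DMSO (0.273 to 1.20). Both ratios were past the fold used for a call, in opposite directions, and the interval of the second held 1. The ratio without vehicle was 3.79 times the ratio with vehicle (1.49 to 9.84), an interval of counting error that did not hold 1. Such opposite calls were made at 1.45% of all tested sites, and the reverse pair at 1.06%. Between the 2 libraries that received IL-4 and differed in vehicle, DMSO + IL-4 was 0.409 of IL-4 (0.194 to 0.802) at the start site. The IL-4 difference at the Fn1 start therefore had no single direction in these libraries, and vehicle, library and preparation cannot be told apart.

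At the 77.7-kb upstream site the IL-4 libraries were higher in both pairs, to different extents. It had 90 reads in Untreated and 107 in DMSO, and with IL-4 it had 130 alone, 103 with vehicle, 163 with LatA and 156 with MCSF. These were 66.6, 96.4, 128, 127, 172 and 183 normalized reads. IL-4 was 1.92-fold above Untreated (1.45 to 2.54). DMSO + IL-4 was 1.32-fold above DMSO (0.9996 to 1.75), short of the fold used for a call. The libraries IL-4 and DMSO + IL-4 were level, at a ratio of 0.999 (0.764 to 1.30), and the controls were not, with DMSO 1.45-fold above Untreated (1.08 to 1.94). The Untreated library was the lowest of the 6 here, and each other library stood above it.

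Nearby, 75.7 kb upstream, the site chr1:71775575-71775823 was the only tested site of the window called higher in both IL-4 comparisons, against 8.73% of all tested sites. It had 16 reads in Untreated and 23 in DMSO, and with IL-4 it had 21 alone, 27 with vehicle, 35 with LatA and 15 with MCSF. The ratio was 1.74 (0.866 to 3.57) for IL-4 over Untreated and 1.61 (0.891 to 2.95) for DMSO + IL-4 over DMSO. Both intervals held 1, so neither ratio was detectable as a difference at this depth. With 5 reads added the second was no longer called (log2 0.58). DMSO over Untreated was as large here, at 1.75 (0.885 to 3.54). No tested site of the window was lower in both comparisons, against 2.38% of all tested sites.

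The site 65.0 kb upstream, chr1:71764651-71765421, went the other way from the start site. It had 42 reads in Untreated, the deepest library, and 19 to 22 in each other library, which were 31.1 normalized reads and 17.1 to 23.5. IL-4 was 0.632 of Untreated (0.351 to 1.10) and was called lower, while DMSO + IL-4 was 1.37-fold above DMSO (0.689 to 2.74). With 5 reads added the lower call was lost (log2 -0.55). Among the comparisons made at this site, the interval excluded 1 only for DMSO, at 0.551 of Untreated (0.302 to 0.968). Untreated over the next library in order, DMSO + IL-4, was 1.32 (0.752 to 2.41).

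The 2 downstream sites were within 1.5-fold between the IL-4 libraries and their controls. The 96.2-kb downstream site had 277 reads in Untreated and 322 in DMSO, and with IL-4 it had 217 alone, 191 with vehicle, 299 with LatA and 299 with MCSF. IL-4 was 1.04-fold above Untreated (0.866 to 1.25), and DMSO + IL-4 was 0.815 of DMSO (0.678 to 0.978). The libraries without IL-4 differed by more, with DMSO 1.41-fold above Untreated (1.20 to 1.67). The interval of IL-4 over Untreated excludes a 1.5-fold difference in either direction by counting error between these 2 libraries. It does not cover variation between libraries, so it cannot exclude such an effect of IL-4. The site 117.8 kb downstream of the gene start, chr1:71581713-71582592, had 55, 49, 43, 27, 28 and 36 reads, and its highest library, DMSO, was 1.49-fold above its lowest, LatA + IL-4 (0.921 to 2.47).

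In all, 3 of the 6 tested sites were called higher with IL-4 over Untreated (background 20.8% of tested sites) and 1 lower (8.88%). With vehicle in both libraries, 1 was called higher (16.6%) and 1 lower (12.8%). The median log2 ratio of the 6 sites was 0.40 without vehicle, against 0.10 over all tested sites, and 0.05 with vehicle, against 0.01. Each count rests on 6 sites, of which 4 had means under 40 reads. Between the controls, DMSO over Untreated, 2 sites were called higher (16.8%) and 1 lower (7.24%), so the 2 libraries without IL-4 were past 1.5-fold at 3 of the 6 sites. Between DMSO + IL-4 and IL-4, 1 site was called higher (11.2%) and 1 lower (9.8%).

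Without the read filter, over all 32 sites, most of them with few reads, 15 were past 1.5-fold higher with IL-4 over Untreated (24.6% of all sites) and 5 lower (22.4%). With vehicle, 14 were higher (24.9%) and 2 lower (24.1%). For latrunculin A over its vehicle, 7 were higher (27.5%) and 6 lower (28%), and for MCSF over IL-4, 6 were higher (27.5%) and 11 lower (27.1%). For DMSO over Untreated, 12 were higher (22.4%) and 7 lower (21.3%), and for DMSO + IL-4 over IL-4, 8 were higher (22.7%) and 8 lower (22.6%). Beside these counts, 15 of the 32 sites held peaks only in libraries with IL-4, all 15 below the filter, and 1 only in a library without IL-4. Over all sites below the filter these shares were 42.3% and 22.3%, and 4 libraries have IL-4 against 2 that do not. The part of this in the counts was not tested, and nothing was read from their direction. Of the 32 sites, 6 were higher in both IL-4 comparisons (8.66% of all sites), 5 of them below the filter.

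**Figure D3:**
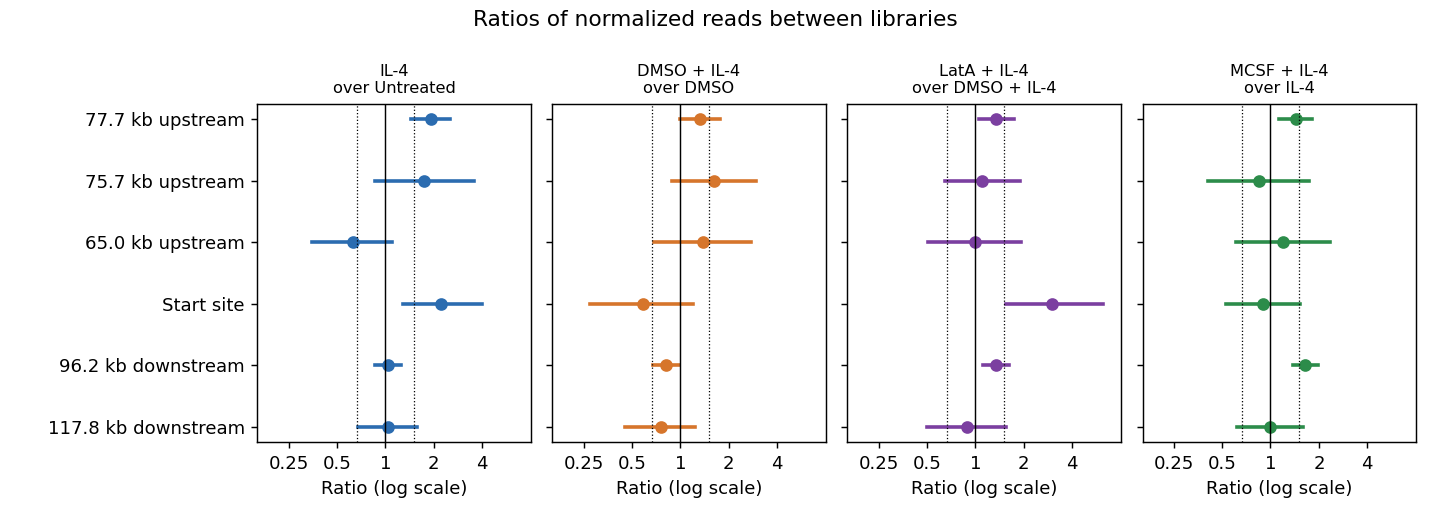
Ratio of normalized reads between 2 libraries (x axis, log scale) at the 6 tested sites (y axis, by distance from the gene start), with exact 95% intervals for counting error, in the 4 comparisons named above each panel. The solid line is a ratio of 1 and the dotted lines a 1.5-fold difference; the start site lies right of the line for IL-4 over Untreated (2.23), left of it for DMSO + IL-4 over DMSO (0.589), and farthest right for LatA + IL-4 over DMSO + IL-4 (2.98).

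The second comparison set latrunculin A against its vehicle, with IL-4 in both. The start site was the only tested site called higher (1 of 6, background 30.1%), at 2.98-fold (1.54 to 6.22), and none was called lower (15.7%). The size of that ratio depended on the control. DMSO + IL-4, with 12 reads, was the lowest of the 6 libraries there, and against the IL-4 library without vehicle LatA + IL-4 was 1.22-fold higher (0.765 to 1.95). Against DMSO alone it was 1.76-fold higher (1.06 to 2.94). With the IL-4 library as control the start site was thus not called, and the 75.7-kb upstream site was (log2 0.81).

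The strongest sites were also higher with latrunculin A, by less. The 77.7-kb upstream site was 1.35-fold higher (1.05 to 1.74) and the 96.2-kb downstream site 1.33-fold higher (1.11 to 1.61). Over all 13052 sites averaging 100 reads or more, the median log2 ratio was 0.56 in this comparison, beside 0.42 over these 2. With the trend of log2 ratio with reads per site removed, the upstream site was at -0.12 and the downstream site at -0.07. The 75.7-kb upstream, 65.0-kb upstream and 117.8-kb downstream sites gave ratios of 1.10, 0.987 and 0.884, with intervals that held 1.

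The third comparison set added MCSF against IL-4 alone. The 96.2-kb downstream site was the only one called higher (1 of 6, background 29.2%), at 1.64-fold (1.38 to 1.97), and none was called lower (14.9%). The 77.7-kb upstream site was 1.43-fold higher (1.13 to 1.82). The median log2 ratio over all sites with at least 100 reads was 0.59 here, beside 0.61 over these 2. With that trend removed, the upstream site was at -0.04 and the downstream site at 0.21, short of a call. The start site did not move detectably, at 0.903 of IL-4 (0.532 to 1.52), nor did the other 3 tested sites, at 0.852 to 1.19. With DMSO + IL-4 as the control instead, the call at the 96.2-kb downstream site was lost (log2 0.56), the start site was called higher (1.09) and the 75.7-kb upstream site lower (-0.89).

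Latrunculin A and MCSF can be set beside each other at the same IL-4 dose, though their controls differ in vehicle. Over all 6 tested sites the log2 ratios had a median of 0.28 with latrunculin A and 0.12 with MCSF, against 0.20 and 0.16 over all tested sites. No tested site of the window was called higher in both (15.4% of all tested sites) or lower in both (4.36%).

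**Figure D4:**
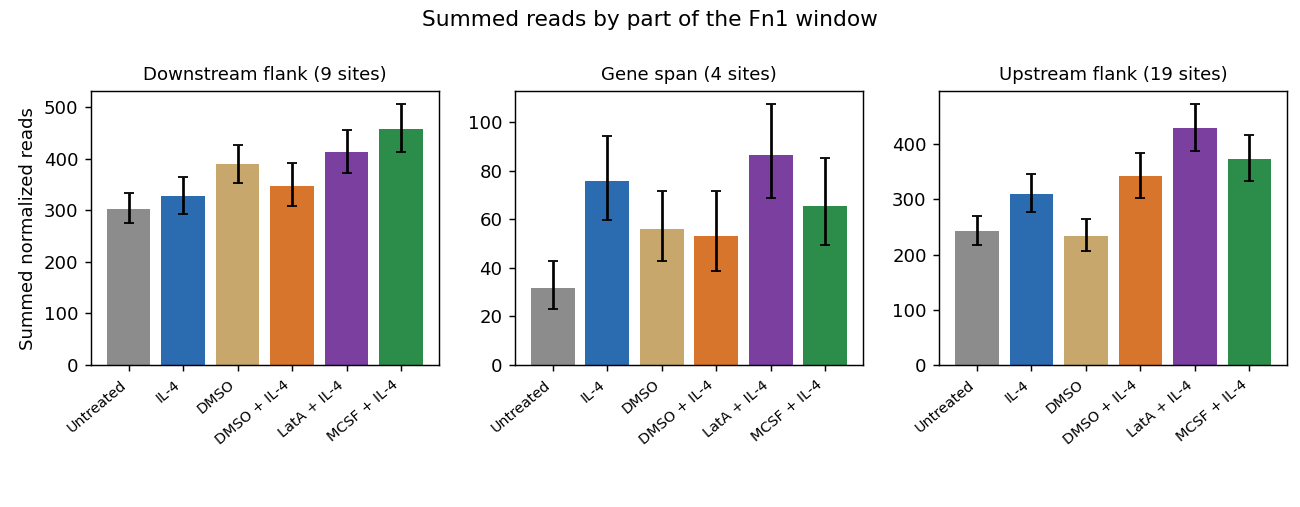
Summed normalized reads (y axis, from 0) in each library (x axis) over the sites of the downstream flank, the gene span and the upstream flank, with exact 95% Poisson intervals as bars. In the gene span Untreated (31.8) is lowest and LatA + IL-4 (86.5) highest, and the 4 sites there sum to far less than either flank.

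Summed over all 4 sites of the gene span, reads were 43 in Untreated and 62 in DMSO, and with IL-4 they were 77 alone, 43 with vehicle, 82 with LatA and 56 with MCSF. IL-4 was 2.38-fold above Untreated (1.62 to 3.53), and DMSO + IL-4 was 0.953 of DMSO (0.631 to 1.43). LatA + IL-4 was 1.62-fold above DMSO + IL-4 (1.11 to 2.41), and MCSF + IL-4 was 0.868 of IL-4 (0.604 to 1.24). The start site supplied 12 to 42 of those reads, and the other 3 sites held peaks only in libraries with IL-4, so the sum is not independent of where peaks were called. Without those 3 the gene span is the start site, with the ratios given above. Between the libraries without IL-4, DMSO was 1.75-fold above Untreated over the gene span (1.17 to 2.65). Within 10 kb of the gene start, over 3 sites, the ratios of these 4 comparisons were 2.10, 0.615, 2.91 and 0.830.

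In the upstream flank the IL-4 libraries were higher in both pairs, but without vehicle 1 site carried the difference. It summed to 327 reads in Untreated and 259 in DMSO, and with IL-4 to 316 alone, 276 with vehicle, 406 with LatA and 318 with MCSF. After scaling, IL-4 was 1.28-fold above Untreated (1.09 to 1.501) and DMSO + IL-4 1.46-fold above DMSO (1.23 to 1.74). LatA + IL-4 was 1.25-fold above DMSO + IL-4 (1.07 to 1.47) and MCSF + IL-4 1.20-fold above IL-4 (1.02 to 1.41). DMSO was at 0.964 of Untreated (0.816 to 1.14). Without the 77.7-kb site, a sum over the other 18 sites added after the values were seen, IL-4 over Untreated was 1.04 (0.855 to 1.27), DMSO + IL-4 over DMSO 1.56 (1.25 to 1.96) LatA + IL-4 over DMSO + IL-4 1.20 (0.981 to 1.46) and MCSF + IL-4 over IL-4 1.04 (0.837 to 1.29). DMSO over Untreated was then 0.781 (0.633 to 0.961), beside 1.45 at the 77.7-kb site itself. Of the 19 sites, 6 held peaks only in libraries with IL-4, and these summed to 29 reads in Untreated and 15 in DMSO, and with IL-4 to 39 alone, 39 with vehicle, 34 with LatA and 15 with MCSF. Over the other 13, IL-4 over Untreated was 1.23 (1.04 to 1.46) and DMSO + IL-4 over DMSO 1.34 (1.11 to 1.60).

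The downstream flank, most of whose reads came from its strongest site, gave intervals that held 1 in both IL-4 pairs. IL-4 was 1.08-fold above Untreated (0.933 to 1.25) and DMSO + IL-4 was 0.894 of DMSO (0.767 to 1.04). DMSO was 1.28-fold above Untreated (1.12 to 1.47), and MCSF + IL-4 was 1.40-fold above IL-4 (1.20 to 1.62). Over the whole window the ratios were 1.24 for IL-4 over Untreated, 1.10 for DMSO + IL-4 over DMSO, 1.25 for latrunculin A and 1.26 for MCSF. Without the 2 strongest sites, a sum added after the values were seen, the MCSF ratio was 0.974 (0.835 to 1.13) and the ratio of DMSO + IL-4 over DMSO 1.30 (1.11 to 1.52).

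Peaks, which the authors called in each library separately, gave a second view of the window. There were 12 in Untreated and 9 in DMSO, and with IL-4 there were 15 alone, 16 with vehicle, 19 with LatA and 20 with MCSF. At a stricter threshold, a −log10 q of at least 5, they were 8, 8, 12, 9, 17 and 14, so the vehicle pair went from 16 against 9 to 9 against 8. Untreated had the most peaks genome-wide, 269643 against 222076 to 232676 in the others. In the gene span the numbers were 0, 1, 3, 2, 5 and 3. No peak was called anywhere in the Fn1 gene span of the Untreated library.

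At the start site, a peak was called in DMSO and, among the libraries with IL-4, in the one with IL-4 alone and those with LatA or MCSF, and none in Untreated or DMSO + IL-4, the libraries with the lowest normalized reads there. DMSO had 1 peak, with its summit 339 bp inside the gene start. The 3 IL-4 libraries each had 2, one with its summit 583 to 650 bp inside the gene start and one 122 to 193 bp inside it. The 2 summits were 457 bp apart with IL-4 alone, 521 bp with LatA and 415 bp with MCSF. Their fold enrichment over local background was low, from 3.07 in DMSO to 5.39 in LatA + IL-4, against 21.6 to 26.8 at the 96.2-kb downstream site and 12.4 to 16.5 at the 77.7-kb upstream site.

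**Figure D5:**
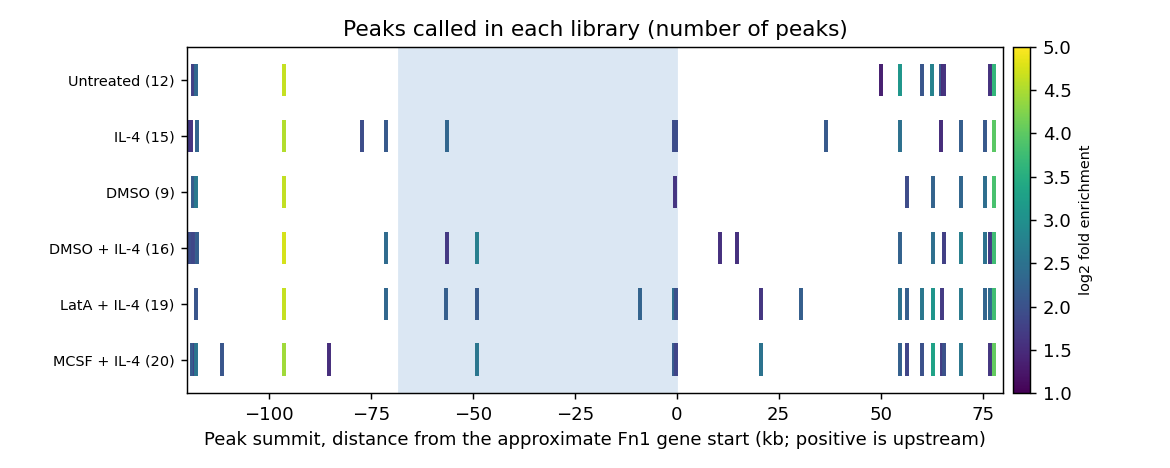
Each tick is a peak called in the library named on the y axis (number of peaks in parentheses), placed by the distance of its summit from the approximate gene start in kb and coloured by log2 fold enrichment; the shaded band is the gene span. The 96.2-kb downstream and 77.7-kb upstream peaks are in all 6 libraries, and the gene span holds 0 peaks in Untreated and 5 in LatA + IL-4.

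Of the 32 sites, 3 held a peak in all 6 libraries: the 96.2-kb downstream, 77.7-kb upstream and 117.8-kb downstream sites. A further 11 held a peak in 1 library only, and 2 in none. The matching shares over all sites were not computed, so nothing is read from these counts. The widest peak of the window was at the 96.2-kb downstream site in each library, from 753 bp in DMSO to 884 bp in MCSF + IL-4, and its summits fell within 83 bp of each other. The summits at the 77.7-kb upstream site fell within 59 bp.

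Peaks were counted as shared when they overlapped by at least 1 bp. IL-4 shared 26.7% of its 15 peaks with Untreated, and Untreated 33.3% of its 12 with IL-4, beside 61.0% and 52.3% of peaks genome-wide. DMSO + IL-4 shared 43.8% of its 16 with DMSO, and DMSO 77.8% of its 9, beside 55.0% and 53.1%. LatA + IL-4 shared 57.9% of its 19 with DMSO + IL-4, which shared 68.8% of its 16, beside 54.3% and 54.4%. MCSF + IL-4 shared 45.0% of its 20 with IL-4, which shared 53.3% of its 15, beside 54.3% and 53.6%. Between the libraries without IL-4, DMSO shared 55.6% of its 9 and Untreated 41.7% of its 12, beside 63.0% and 53.9%. DMSO + IL-4 shared 56.3% of its 16 with IL-4, which shared 60% of its 15, beside 57.0% and 55.0%.

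The other 3 sites of the gene span were below the read filter. One, 56.3 kb inside the gene from its start, had 8 reads in Untreated and 15 in DMSO, and with IL-4 it had 23 alone, 11 with vehicle, 18 with LatA and 11 with MCSF. One 48.9 kb inside had 6, 11, 9, 15, 11 and 13 reads, and one 8.88 kb inside had 7, 8, 8, 5, 11 and 4. No call was made at these counts.

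The remaining weak sites lay mostly upstream. Of the 19 upstream sites, 11 were grouped 54.7 to 77.7 kb from the gene start, a grouping made after the positions were seen, and these included all 3 that passed the filter. The 8 nearer ones, from 6.27 to 50.2 kb, had means of 0.491 to 8.64 normalized reads. Just below the filter stood the site 77.0 kb upstream, with a mean of 19.5 and reads of 19, 11, 15, 13, 39 and 18, highest with LatA. The sites 69.7, 54.7 and 62.7 kb upstream had means of 18.9, 17.9 and 17.9. Just inside the filter was the 65.0-kb upstream site, at 23.0. The 26 sites below the filter had a median of 8.69, and 6 of them had no read in at least 1 library.

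The site whose log2 levels followed those of the start site most closely was 56.4 kb upstream, with a Pearson correlation of 0.91 over the 6 libraries. Its reads were 10, 14, 12, 7, 18 and 13, and in normalized reads it was highest in LatA + IL-4, as the start site was, but lowest in Untreated, where the start site was lowest in DMSO + IL-4. The next were the sites 77.1 kb from the gene start on the downstream side (0.73) and 56.3 kb inside the gene (0.71). All 3 were below the read filter, with means of 8.89 to 14.6, and the points share library and depth.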

How the data were processed

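Per the study's methods, Cutadapt trimmed the paired-end reads, Bowtie2 aligned them to mm9, Picard removed duplicates and featureCounts counted reads per site. Peaks were called with macs2. Versions are not given in the sources used here. The deposited site table holds a signal, reads scaled by the authors to CPM with TMM factors in edgeR. Within a column all values were multiples of 1 step (to within 0.01 reads), so whole reads were recovered for 100% of values. In the deposited peak lists the fold enrichment is a ratio to local background and describes peaks. The deposited −log10 q-value served as a stricter threshold. The deposited score column holds that value as a whole number and was not used.

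Ratios were computed in Python 3.11.15 with SciPy 1.17.1, on log2 normalized reads with 1 read added for calls. The calling and interval steps were tested on simulated data. edgeR 4.0.16 and DESeq2 1.42.0 in R 4.3.3 gave alternatives. The fit in edgeR was its quasi-likelihood test with additive terms for IL-4, vehicle, LatA and MCSF over the 6 libraries, with Benjamini-Hochberg adjustment. Other alternatives were 3 scalings, a trend with reads per site, other filters, folds and controls, and a stricter q-value.

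For peak calling the authors had macs2 shift and extend each read so that the window is centred on its end. Bowtie2 could report up to 10 alignments per read, so reads in repeats can count at several sites. At sites held by a single peak list, that library's own column was highest in 83.1 to 93.8%, with the sites of lowest mean reads left out. Sites named in the text are the tested sites, the 10 with the highest means, the site nearest the gene start and the 3 most like it. The locus and these lists were chosen with earlier results of these data known. The site table pairs no site with a gene, so fibronectin pathway genes, macrophage markers and promoter motifs were not analysed here. The reference given was GRCm38, used only for neighbouring gene names, and no sequence was read from it.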

Additional observations from a re-analysis of the deposited data

Results flagged for a closer look

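The IL-4 ratio had opposite directions without and with vehicle at 4 of the 6 tested sites and in 3 summed zones. With 1 library per condition the difference between the pairs was not tested. The share of all tested sites with opposite directions was not computed, so nothing is read from this count. The IL-4 ratio without vehicle divided by that with vehicle was 3.79 (1.49 to 9.84) at the start site. Elsewhere the intervals of counting error held 1. The values were 1.37 (0.708 to 2.66) at the 117.8-kb downstream site and 1.27 (0.983 to 1.65) at the 96.2-kb downstream site. At the 65.0-kb upstream site the value was 0.46 (0.185 to 1.14). The same ratio was 2.49 over the gene span, 3.42 within 10 kb of the gene start and 1.21 over the downstream flank. The start site belongs to both the gene span and the zone around the gene start, so those 3 values are not separate. At both downstream sites the IL-4 ratio without vehicle fell below 1 when scaled to total reads outside the largest sites (log2 -0.03 at each), so the opposite directions there depend on the scaling.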

How the results depend on the processing

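No paired analysis was possible because each group is 1 library and no replicate number joins libraries, and for the same reason no replicate could be left out. The edgeR fit has vehicle as a term and so uses both IL-4 pairs, without replicates. No called site changed direction under the other scalings, the trend, added reads or exchanged controls. In the edgeR fit the start site had log2 terms of 0.31 for IL-4 and -0.27 for vehicle. Those directions were opposite to its calls for DMSO + IL-4 over DMSO and for DMSO over Untreated. Under the alternatives run 6 sums crossed 1: the LatA downstream flank and the DMSO + IL-4 over IL-4 window (0.998) with the trend removed, the MCSF and DMSO over Untreated windows without their 2 strongest sites, and the MCSF gene span (1.23) and start zone with the control exchanged. Counts of the 6 tested sites follow as higher then lower. Without a read filter, over all 32 sites, they were 15 and 5 (IL-4 over Untreated), 14 and 2 (DMSO + IL-4 over DMSO), 7 and 6 (LatA), 6 and 11 (MCSF), 12 and 7 (DMSO over Untreated), and 8 and 8 (DMSO + IL-4 over IL-4). With a mean of at least 50 or 100 reads, 2 sites were left, and the counts were 1 and 0 for IL-4 over Untreated, 0 and 0 for DMSO + IL-4 over DMSO, LatA, DMSO over Untreated and DMSO + IL-4 over IL-4, and 1 and 0 for MCSF. At 2-fold the counts that changed were 1 and 0 for IL-4 over Untreated, and 0 higher for DMSO + IL-4 over DMSO (0 lower), MCSF, DMSO over Untreated (0 lower) and DMSO + IL-4 over IL-4. With 5 reads added, they were 0 lower for IL-4 over Untreated, 0 higher for DMSO + IL-4 over DMSO and 1 higher for DMSO over Untreated.

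With total reads in sites, DESeq2 size factors, total reads outside the largest sites, or the trend with reads per site removed, DMSO over Untreated gave 1 higher, and under the last 2 MCSF gave 0 higher. Scaling to total reads outside the largest sites moved the median of all tested sites by -0.19 (LatA), -0.20 (MCSF) and -0.10 (DMSO over Untreated) on the log2 scale, and total reads in sites moved the last by -0.12. Higher calls then made up 47.4% in place of 65.8% of calls for LatA, 46.4% in place of 66.1% for MCSF, and 53.3% or, with total reads in sites, 50.7% in place of 69.8% for DMSO over Untreated. The window ratio became 1.09 for both LatA and MCSF. With the trend removed it was 1.06 for LatA, 1.04 for MCSF and 1.01 for DMSO over Untreated, and the downstream flank was 0.927, 1.08 and 1.06. The 77.7-kb upstream site then had log2 ratios of -0.12 (LatA) and -0.04 (MCSF), and the 96.2-kb downstream site -0.07 and 0.21. Without the 2 strongest sites the window was 1.30 for DMSO + IL-4 over DMSO, 0.974 for MCSF and 0.955 for DMSO over Untreated, and without its strongest site the upstream flank was 1.04 for IL-4 over Untreated and 0.781 for DMSO over Untreated. Without sites whose peaks are only in libraries with IL-4, an alternative also added after the data were seen, the gene span was 0.589 for DMSO + IL-4 over DMSO, 2.98 for LatA and 0.409 for DMSO + IL-4 over IL-4.

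With control libraries exchanged, the zone within 10 kb of the gene start was 1.35 for LatA and 1.78 for MCSF, the start site's log2 ratios were 0.28 and 1.09, and MCSF gave 1 lower, the 75.7-kb upstream site (-0.89). The single higher call was then another site in each: the 75.7-kb upstream site for LatA (0.81) and the start site for MCSF, with the 96.2-kb downstream site at 0.56. At a −log10 q of at least 5, DMSO + IL-4 kept 9 of 16 peaks and DMSO 8 of 9. An edgeR quasi-likelihood fit, added after the data were seen, has 1 residual degree of freedom, the difference between the IL-4 pairs. Of the 6 sites it called 0 for IL-4 (1 higher at an unadjusted p under 0.05), 0 for LatA (0 unadjusted), 0 for vehicle (0 unadjusted) and 1 higher for MCSF (2 unadjusted), the 96.2-kb downstream site (adjusted p = 0.0407). Over all tested sites it called 5.35% higher for IL-4 (12.3% unadjusted), 1.54% for LatA (16.9%), 0.175% for vehicle (5.30%) and 8.45% for MCSF (22.3%). The causes of these changes were not tested beyond what each setting alters. With 12 to 42 reads a library at the start site, depth limits its ratios more than those of the strong sites.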

Other observations

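The sites 20.5 and 20.7 kb upstream had peaks in MCSF + IL-4, at fold enrichments of 5.51 and 5.73, and the second also had a peak in LatA + IL-4, at 3.11, yet the table holds 0 reads for those libraries there. Over all sites, 0.243 to 1.07% of those with a peak had no read in the same library's column. The site 36.7 kb upstream had 0 reads in Untreated and 3 in DMSO, and with IL-4 it had 17 alone, 5 with vehicle, 10 with LatA and 8 with MCSF, and its only peak was in IL-4.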
